A study of Homo sapiens with 2 samples.

Results

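NF-kB is a family of dimeric transcription factors built from the Rel proteins RELA, RELB and REL and from p50 and p52, which are cut from the precursors encoded by NFKB1 and NFKB2. In resting cells IkB proteins hold these dimers in the cytoplasm. The IKK kinases mark IkB for destruction after a cytokine signal or DNA damage, and the released dimers then switch on target genes that include several of their own inhibitors, among them NFKBIA and TNFAIP3. The 10 genes described here are the 5 subunit genes (RELA, RELB, REL, NFKB1 and NFKB2), the 3 classical IkB genes (NFKBIA, NFKBIB and NFKBIE), NFKBIZ, which encodes a nuclear IkB protein, and TNFAIP3, which encodes the ubiquitin-editing enzyme A20. They were taken by name through their Entrez gene IDs, and all 10 had a value among the 23033 genes with a value in the table.

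RNAseq was performed in control cells, labelled WT, and in FZR1 ko cells, in which FZR1, an activator of the anaphase-promoting complex, was targeted with CRISPR/Cas9 and a line was grown from single cells. Both carry the label T-47D, the name of a line from a luminal breast cancer, and both were treated with cisplatin at 2 µg/ml, so cells without the drug were not compared. There was 1 library per group, and no difference below has a replicate check or a test. The values are FPKM, fragment numbers scaled to transcript length and to library size, so levels of different genes can be set side by side. Where a pair of values is given, control comes first and FZR1 ko second. Differences are given as the log2 ratio of FPKM + 1, FZR1 ko over control. Gene positions are those of RefSeq on GRCh38.p14, the hg38 build. The 13554 genes that reached 1 FPKM in either library were kept, and a gene was counted when it differed at least 2-fold on this scale. In bulk RNA, fewer cells making a transcript and less of it per cell cannot be told apart.

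FPKM holds no read number, so the depth behind a value is unknown. Short RNA genes, where few reads make up a value, put the FZR1 ko library at about 1.02 times the reads of control (46 of 244 such genes within 0.5% of the same ratio). The targeted gene FZR1 had 12.3 FPKM in control against 10.1 in FZR1 ko (log2 ratio -0.26). Its RNA level alone thus does not show the knockout, which the paper reports from western blot. Of 11 luminal breast markers, 5 were below 1 FPKM in both libraries, including ESR1 at 0.04 and 0.13 FPKM, PGR at 0.01 FPKM and listed at 0, and GATA3 at 0.31 and 0.15 FPKM. CDH1 at 0.69 and 0.62 FPKM and the keratin KRT19 at 0.20 and 0.16 FPKM were the others. Of the 6 above 1 FPKM, 3 were higher in FZR1 ko, the keratins KRT8 (829 and 998 FPKM) and KRT18 (552 and 740.0 FPKM) and the adhesion gene EPCAM (3.90 and 11.5 FPKM, at least 2-fold higher). The other 3 were lower, XBP1 at 93.4 and 72.6 FPKM, TFF1 at 9.80 and 7.52 FPKM and FOXA1 at 5.07 and 4.65 FPKM. VIM, a mesenchymal marker, had 315 and 295 FPKM. The near absence of ESR1, PGR, GATA3, CDH1 and KRT19 and the level of VIM go against the T-47D label in both libraries, and T-47D is used here only as the label given. Of 11 leukocyte and stroma markers, 7 were below 1 FPKM in both libraries. The pan-leukocyte gene PTPRC had 0.08 and 0.09 FPKM, and CD3E and MS4A1 were listed at 0 in both. The marker sum was 54.8 FPKM in control against 71.2 in FZR1 ko, of which CD68, a lysosomal gene, held 46.1 and 63.8 FPKM.

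Several of these genes are known targets of NF-kB, so the stretches before their start sites were searched for the kappa-B consensus, the 10-base site that NF-kB dimers bind. The windows run from 250 bases before to 50 bases after each RefSeq start on GRCh38.p14, and both strands were read. A site that reads alike on both strands matches on both. Windows were present for 8 of the 10 genes, with RELB and NFKBIE not in the table. A match was found for 7 of these 8 genes and in 9 of their 14 windows. RELA, with 2 windows, had none. Over all promoters 11.3% of 35116 windows held a match, or 13.3% of genes. One stretch per gene is given here, in the direction of the gene with the matching bases in capitals, to show which bases matched. Their likeness follows from the search for a single consensus. Each stretch lies before the start site to which it belongs, and none is longer than 30 bases.
REL (plus strand, chr2:60881518-60881547): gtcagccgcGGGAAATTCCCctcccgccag
NFKB1 (plus strand, chr4:102501300-102501329): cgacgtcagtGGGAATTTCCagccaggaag
NFKB2 (plus strand, chr10:102394462-102394491): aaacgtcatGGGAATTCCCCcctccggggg
NFKBIA (minus strand, chr14:35404811-35404840): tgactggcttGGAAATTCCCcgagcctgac
NFKBIB (plus strand, chr19:38899932-38899961): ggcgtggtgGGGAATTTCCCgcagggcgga
NFKBIZ (plus strand, chr3:101827757-101827786): tttttggtctGGGAATTTCCagtgtgcaga
TNFAIP3 (plus strand, chr6:137867188-137867217): ctttGGAAAGTCCCgtGGAAATCCCCgggc

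The match of NFKBIA, which encodes IkB-alpha, is on the other strand and spans bases -81 to -72 from its start. It lies outside annotated exons of GENCODE 44. The match of NFKB1 spans -49 to -40, in an exon of a transcript other than NFKB1. In REL the matching bases span -47 to -37, and in NFKB2 -107 to -97 from its second start. In NFKBIB they span -28 to -18 from its second start. Each of these spans holds overlapping matches on both strands, shifted against each other. The stretches of REL, NFKB2, NFKBIB and TNFAIP3 lie in exons of longer transcripts of the same gene. TNFAIP3 carries a pair of matches from -67 to -46, both on the other strand. The match of NFKBIZ spans -223 to -214 and falls in an exon of its neighbour NXPE3. NFKB2, NFKBIB and NFKBIZ have further matches, which the map of positions shows. The letters of a match describe the sequence only, and binding was not measured.

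**Figure D1:**
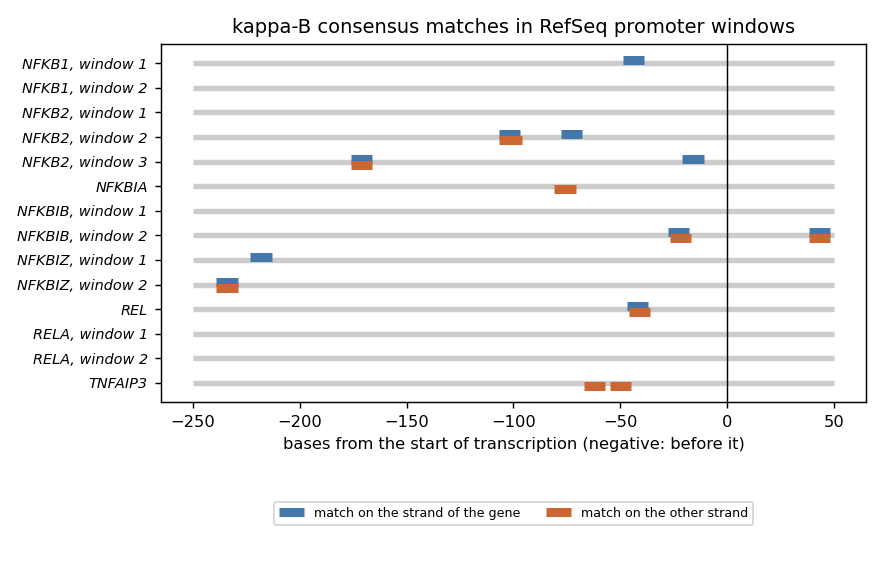
Positions of kappa-B consensus matches in the 14 RefSeq promoter windows of 8 genes, on an axis of bases from the start of transcription. Blue bars are matches on the strand of the gene and orange bars matches on the other strand. The matches of REL, NFKB1, NFKBIA and TNFAIP3 lie within 81 bases of the start, and the windows of RELA hold none.

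RELA (Entrez gene 5970, chr11:65653601-65663857), which encodes p65, the main activating subunit, had the highest level of the 10 genes. It was at 153.7 FPKM in control against 91.7 in FZR1 ko, giving a log2 ratio of -0.74. Only 3.84% of the genes kept had a higher FPKM in control. NFKB2 (Entrez gene 4791, chr10:102394110-102402529), the precursor of p52 in the non-canonical pathway, followed at 130.5 and 85.8 FPKM (log2 ratio -0.60). RELB (Entrez gene 5971, chr19:45001464-45038192), the usual partner of p52, stood lower at 24.8 and 17.5 FPKM (-0.48). Both genes of the non-canonical dimer were thus lower in FZR1 ko, and their level ratio, NFKB2 to RELB, was 5.27 in control and 4.90 in FZR1 ko. REL (Entrez gene 5966, chr2:60881574-60931612), a subunit best known from lymphocytes, was the lowest of the 10 genes at 5.70 and 3.59 FPKM (-0.55).

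NFKB1 (Entrez gene 4790, chr4:102501359-102617302), the precursor of p50, was the exception. It had 11.8 FPKM in control against 13.1 in FZR1 ko, giving a log2 ratio of 0.14, and was the only one of the 10 genes with the higher value in FZR1 ko. p50 is the usual partner of p65. The ratio of NFKB1 to RELA was 0.0770 in control and 0.143 in FZR1 ko. NFKB1 made up 3.62% of the summed subunit FPKM in control and 6.19% in FZR1 ko, while RELA made up 47.1% and 43.3% and NFKB2 40.0% and 40.5%. The sum over the 5 subunit genes was 327 FPKM in control against 212 in FZR1 ko, which is 35.2% lower.

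**Figure D2:**
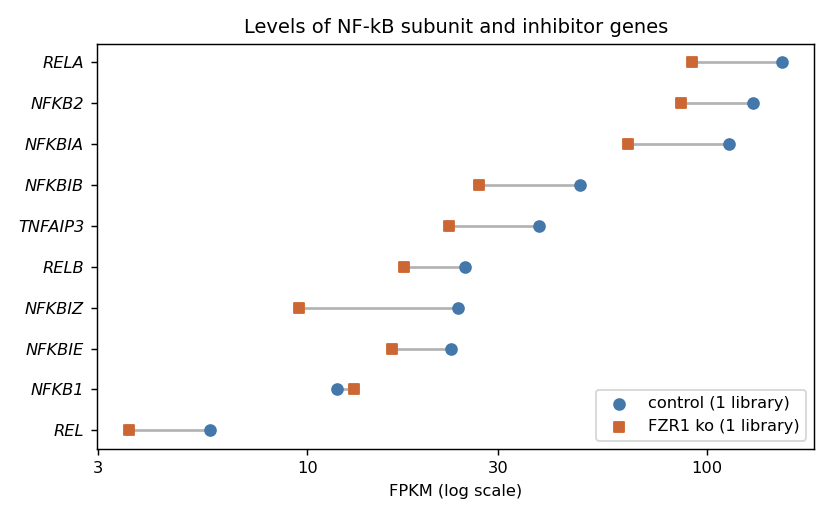
FPKM of the 10 genes on a log axis, with 1 point per library and control in blue circles and FZR1 ko in orange squares. The FZR1 ko point lies left of the control point for 9 genes, and right of it for NFKB1 (11.8 and 13.1 FPKM).

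Among the classical inhibitors, NFKBIA (Entrez gene 4792, chr14:35401513-35404749) was the most abundant. It had 113.1 FPKM in control against 63.5 in FZR1 ko, giving a log2 ratio of -0.82. NFKBIB (Entrez gene 4793, chr19:38899666-38908889), which encodes IkB-beta, had 48.1 and 26.9 FPKM (-0.81), nearly the same log2 ratio as NFKBIA. NFKBIE (Entrez gene 4794, chr6:44258166-44265551), which encodes IkB-epsilon, had 22.8 and 16.3 FPKM (-0.46) and differed least of these 3 genes. Their sum was 184 FPKM in control against 107 in FZR1 ko, which is 42.0% lower. Set against the subunit sum it was 0.564 in control and 0.505 in FZR1 ko, so inhibitor and subunit transcripts were lower side by side. The ratio of NFKBIA to RELA was 0.736 in control and 0.693 in FZR1 ko.

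**Figure D3:**
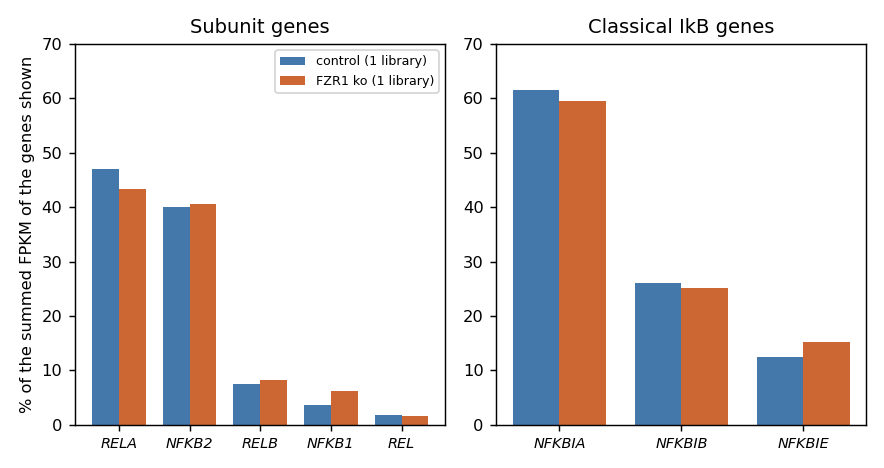
Share of each gene in the summed FPKM of the 5 subunit genes (left) and of the 3 classical IkB genes (right), in %, for the control library (blue) and the FZR1 ko library (orange). RELA and NFKB2 hold most of the subunit sum in both libraries, and NFKB1 holds 3.62% in control and 6.19% in FZR1 ko.

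NFKBIZ (Entrez gene 64332, chr3:101827990-101861022), which encodes IkB-zeta, a nuclear cofactor for a subset of NF-kB targets, differed most. It had 23.9 FPKM in control against 9.55 in FZR1 ko, giving a log2 ratio of -1.24, and without a pseudocount it stood at 0.400 of the control level. It was the only one of the 10 genes past 2-fold, and 3.63% of all genes kept had a ratio as low. With a pseudocount of 5 FPKM its log2 ratio was -0.99, just short of 2-fold. TNFAIP3 (Entrez gene 7128, chr6:137866349-137883312), the A20 gene, had 38.1 and 22.6 FPKM (-0.73), close to RELA in ratio. In control NFKBIZ, RELB and NFKBIE lay close together, at 23.9, 24.8 and 22.8 FPKM, and in FZR1 ko NFKBIZ lay below both and below NFKB1. The order of the other levels was kept, and only NFKBIZ, NFKBIE and NFKB1 changed place. With 1 library per group the spread between such neighbours is not known.

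Over the 10 genes the median log2 ratio was -0.66, against -0.0048 over all genes kept. Of the 10 genes, 9 were lower in FZR1 ko, where 50.3% of all genes kept were lower. At least 2-fold lower was 1 gene, against 6.72% of all genes kept, and at least 2-fold higher were 0 genes, against 6.78%. At a 1.5-fold threshold 6 of the 10 genes were lower (RELA, NFKB2, NFKBIA, NFKBIB, NFKBIZ and TNFAIP3), against 17.6% of all genes kept. The 8 genes other than NFKBIZ and NFKB1 had ratios from -0.82 to -0.46. All 8 lay within the middle 95% of genes kept, which ran from -1.39 to 1.35, and so did NFKBIZ and NFKB1. The share of genes kept with a ratio as low or lower ran from 3.63% for NFKBIZ to 22.6% for NFKBIE among the 9 lower genes, and was 58.5% for NFKB1. Each difference thus lay within the range of most genes, while 9 of 10 had the same direction. The genes were proposed with results of these libraries known, so their median is a description of these libraries only.

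**Figure D4:**
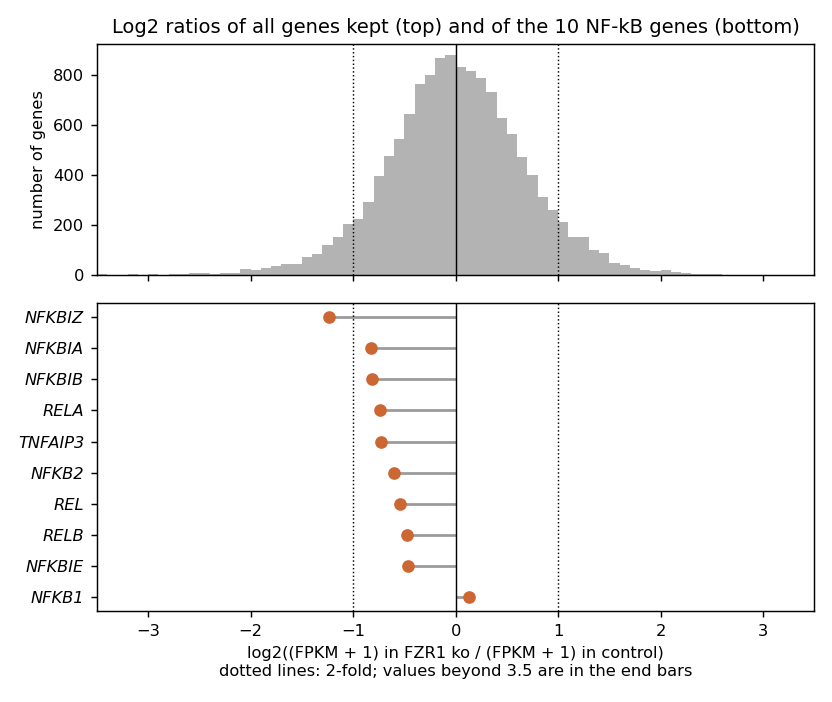
Number of genes by log2 ratio for all 13554 genes kept (top) and the log2 ratio of each of the 10 genes (bottom), with dotted lines at 2-fold. Of the 10 genes, 9 lie left of 0, NFKBIZ lies past the 2-fold line at -1.24, and NFKB1 lies at 0.14.

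The rest of the pathway was read from lists of genes by role. The remaining IkB-family genes were lower to a like extent, BCL3 at 24.0 and 15.5 FPKM (log2 ratio -0.60) and NFKBID at 8.57 and 5.83 FPKM (-0.49). The kinases above IkB did not share this direction. Of the 12 genes of the IKK complex and its upstream kinases, 6 were lower and 6 higher, none was past 2-fold, and the median was -0.03. Within the IKK complex CHUK (IKK-alpha) had 12.6 and 8.33 FPKM, IKBKB (IKK-beta) 5.54 and 10.2 FPKM, and the scaffold IKBKG 16.5 and 14.3 FPKM. CHUK and IKBKB were the extremes of that list, at -0.54 and 0.78, and all 3 were chosen after their values had been looked at.

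The components of the ligase that tags phosphorylated IkB for destruction were all higher in FZR1 ko (5 of 5). Of all genes kept, 50.3% were lower. None of the 5 was past 2-fold, against 6.78% of all genes kept at least 2-fold higher, and their median was 0.67. The median is the value of BTRC, a low gene, and was 0.41 with at least 1 FPKM required in both libraries and 0.25 with a pseudocount of 5 FPKM. These genes were picked in the same way. The F-box genes BTRC and FBXW11, which encode the beta-TrCP proteins, had 0.94 and 6.53 FPKM in control and 2.08 and 11.1 FPKM in FZR1 ko. Without a pseudocount BTRC stood at 2.21 times the control level, past 2-fold. CUL1 had 11.6 and 21.1 FPKM, while SKP1 (137 and 142 FPKM) and RBX1 (48.7 and 53.6 FPKM) differed little. The proteins of CUL1, SKP1 and RBX1 serve other substrates as well.

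Of 17 receptor adaptors and ubiquitin ligases, 10 were lower and 7 higher, with a median of -0.09. The one past 2-fold was BIRC2, which encodes the ligase cIAP1, at 39.7 and 19.1 FPKM (-1.02). Of all genes kept, 50.3% were lower and 6.72% at least 2-fold lower. TRAF1, at 3.73 and 1.56 FPKM (-0.89), was past 2-fold without the pseudocount. Of 16 other negative regulators, 12 were lower and 4 higher, with a median of -0.57. Those past 2-fold were CYLD, a deubiquitinase that opposes IKK activation, at 10.8 and 3.47 FPKM (-1.39), and ZFP36, which promotes decay of cytokine mRNA, at 28.8 and 7.47 FPKM (-1.82). Among all genes kept these shares were 50.3% lower and 6.72% at least 2-fold lower. The 4 higher regulators were COMMD1 (0.64), TAX1BP1 (0.46), ITCH (0.36) and TNIP1 (0.03), none past 2-fold. Among the 7 genes of the route from DNA damage to IKK, 3 were lower and 4 higher, and the median was 0.10. None was past 2-fold, but ERC1 fell just short at 0.55 and 2.08 FPKM (0.99). Without the pseudocount it stood at 3.78 times the control level.

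Of 10 ligand genes 5 were kept, 4 lower and 1 higher with a median of -0.60, which ranged from -0.92 with no pseudocount to -0.21 among genes of at least 5 FPKM. TNF, the classical inducer, had 11.1 FPKM in control against 1.01 in FZR1 ko (-2.59), while IL18 had 24.3 and 51.9 FPKM (1.06). Of 12 receptor genes 8 were kept, 5 lower and 3 higher with a median of -0.30, which ranged from -0.42 among genes of at least 5 FPKM to -0.014 with no filter on low values. TLR4, the receptor for endotoxin, had 4.34 and 0.48 FPKM (-1.85) and TNFRSF12A, the receptor for TWEAK, 253.6 and 113.6 FPKM (-1.15). TNFRSF1A, the main receptor for TNF, had 34.8 and 40.1 FPKM, and TNFRSF1B, its other receptor, 3.86 and 2.45 FPKM (-0.49). Both were named after their values were seen.

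Target genes outside the 10 were mostly lower as well. Of 25 listed targets 23 were kept, 22 of them lower and 1 higher, with 11 at least 2-fold lower, 1 at least 2-fold higher and a median of -0.95. Of all genes kept, 50.3% were lower, 6.72% at least 2-fold lower and 6.78% at least 2-fold higher. With a pseudocount of 5 FPKM that median was -0.60, level with the -0.61 of the 10 genes. An NF-kB target list was already known to be lower in these libraries when this one was written. The largest differences were those of CXCL8, a neutrophil chemokine, at 186 and 18.7 FPKM (-3.25), CCL20, also a chemokine, at 10.1 and 0.28 FPKM (-3.12), and PTGS2, which encodes COX-2, at 45.6 and 9.96 FPKM (-2.09). BCL2L1, which encodes the survival protein BCL-XL, was the one higher at 40.7 and 96.8 FPKM (1.23). NFKBIZ at -1.24 lay below the median of the targets, and NFKBIA and TNFAIP3 lay above it. With a pseudocount of 5 FPKM NFKBIA (-0.79) and TNFAIP3 (-0.64) lay below that median as well.

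Values of all genes were also split by a kappa-B match near the start. Among the kept genes with a promoter window, 1750 had a match and 8604 had none. At least 2-fold lower were 5.66% of the first and 5.68% of the second, and at least 2-fold higher were 7.03% and 6.02%. Lower at all were 813 of the 1750 and 4305 of the 8604. The medians were 0.06 and -0.0017. Of the 17 target genes kept with a window, 9 had a match, with a median of -0.72, and 8 had none, with a median of -1.29. Immediate early genes, which respond within minutes to many signals and have short-lived mRNA, were lower as well, 11 of 11 kept, with 10 at least 2-fold lower and a median of -1.31, where 50.3% of all genes kept were lower and 6.72% at least 2-fold lower. FOS had 16.0 and 1.86 FPKM, EGR1 15.4 and 1.57 FPKM and FOSB 10.1 and 1.16 FPKM. Their part in the lower values of the NF-kB genes was not tested.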

How the data were processed

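Total RNA of the 2 libraries was sequenced on a BGISEQ-500 platform. The authors used Bowtie2 and RSEM with the human hg38 transcriptome, and the submitters' processing notes give Bowtie2 2.2.5, Trimmomatic 0.36 and HISAT2 2.1.0. The paper's methods state a different Bowtie2 version. The annotation version, the filters and whether strand was used are not given in the sources used here. The authors deposited FPKM per Entrez gene ID to 2 decimals, and 1630 of 24663 rows without a value were left out. Of the IDs, 99.5% matched a RefSeq symbol (GRCh38.p14).

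A pseudocount of 1 FPKM was added, which understates differences of low genes. No test, SD or interval was computed, since each group has 1 library. The 10 genes and all lists were chosen with earlier results of these data known, and the lists were written from general knowledge. The rule for named genes took the 10 genes, FZR1, marker genes that check the label and, from each list, up to 3 genes past 2-fold in each direction. BCL3, NFKBID, CHUK, IKBKB, IKBKG, the 5 IkB ligase genes, TNFRSF1A, TNFRSF1B, ACTB and the overlapping genes were named outside it, after their values were seen. So were TRAF1, ERC1, COMMD1, TAX1BP1, ITCH and TNIP1. The alternatives were other pseudocounts, filters, scalings and thresholds. Promoter windows came from RefSeq and exons from GENCODE 44. Computation ran in Python 3.11.15 with pandas 2.3.3, numpy 2.4.6 and matplotlib 3.10.9.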

Additional observations from a re-analysis of the deposited data

How the results depend on the processing

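No paired analysis was possible because each group has a single library and no test was made, and for the same reason no library was left out. The direction of all 10 genes was kept under the 9 alternatives run for each, and their median ranged from -0.71 to -0.61. A pseudocount or a filter cannot turn the direction of a gene, so only the scalings could have done so. The call of NFKBIZ was lost with a pseudocount of 5 FPKM, which left 0 of the 10 genes at least 2-fold lower. A 1.5-fold threshold passed 6 genes and a 4-fold threshold 0. Of all genes, 270 were lower and 183 higher with a pseudocount of 5 FPKM (911 and 919 with 1 FPKM), 2387 and 2440 at 1.5-fold, and 89 and 61 at 4-fold. They were 1358 lower and 1460 higher with a pseudocount of 0.1 FPKM, 615 and 596 among genes of at least 5 FPKM in 1 library, and 1298 and 1422 with no pseudocount, the last 2 settings chosen after seeing the data. Looser or stricter settings pass more or fewer genes by construction. Of 126 list medians under alternatives, 118 kept their sign and their side of 2-fold. Of the other 8, 5 were medians of marker lists, among them the leukocyte and stroma list at 0 with no filter and -0.23 with it. The median of the target list (-0.95) was past 2-fold in the remaining 3, at -1.08 to -1.26, and was -0.60 with a pseudocount of 5 FPKM. Unknown depth limits the low genes, such as REL, most.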

Other observations

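Some of the 10 loci overlap other genes. Whether the counting used strand is not given in the sources used here, and if it did not, the reads of such partners cannot be told apart. NFKB1-AS1, antisense to NFKB1, was at 4.06 FPKM in control against 2.66 in FZR1 ko, the opposite direction to NFKB1. WAKMAR2, a noncoding gene that overlaps TNFAIP3 over 1885 bases, had 4.07 and 5.96 FPKM, again opposite to its partner. NXPE3, which shares 242 bases with NFKBIZ, had 2.12 and 2.43 FPKM.

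Among 10 widely expressed genes, 6 were lower and 4 higher in FZR1 ko, with a median log2 ratio of -0.05 and a range from -1.63 to 0.74. B2M, the light chain of MHC class I, had 1309 and 422 FPKM, a larger difference than any of the 10 NF-kB genes, and ACTB, named after its values were seen, had 1235 and 2070 FPKM. Of 7 mesenchymal and basal markers kept, 4 were higher and 3 lower in FZR1 ko. CDH2 (2.97 and 15.3 FPKM) and AXL (16.0 and 37.8 FPKM) were at least 2-fold higher, where 6.78% of all genes kept were. The lower ones were SNAI2 at 7.05 and 3.86 FPKM, FN1 at 6.33 and 5.88 FPKM, and VIM.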
